A study of Mus musculus with 6 samples.

Results

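Sialyltransferases, the Golgi enzymes that attach sialic acid to the ends of glycans, were followed through 3 natural killer (NK) cell subsets of the mouse spleen. Every probe set annotated to St3gal1, St3gal2, St3gal4, St3gal6, St6gal1, St6galnac3, St6galnac4, St6galnac6, St8sia1 and St8sia4 was taken, which gave 24 of the 45037 probe sets other than controls and 10 of the 18193 measured genes. These 10 genes were listed with earlier results for the same arrays known, so their values across the subsets are a description, and no test of them is offered as support. All samples came from spleens of RAG-/- mice, which lack mature T and B cells, and were NK1.1+ cells sorted by flow cytometry as CD27+ CD11b-, CD27+ CD11b+ or CD27- CD11b+. The subsets are commonly placed in that order as stages of NK cell maturation. The labels give neither the age or sex of the mice, nor which Rag gene was deleted, nor whether animals were pooled. Each subset was hybridised to 2 Affymetrix arrays, 6 in all, described as independent replicates with no statement that they came from separate animals, so the spread seen here may be technical, and precision is limited by having 2 arrays each.

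Levels below are RMA values on the log2 scale, and means are given ± SD (n = 2 arrays per subset). RMA corrects background and equalises the distribution between arrays. A probe set counted as above background where a subset mean exceeded 6.26, the 95th percentile of the means of 41 genes of other tissues. Differences are later minus earlier subset on the log2 scale, with the standard error (SE) of a limma fit over all 18193 genes, and a gene passed where its Benjamini-Hochberg adjusted p was under 0.05. In these bulk samples, fewer cells that carry a transcript and less of it per cell cannot be told apart. CD27-CD11b+ minus CD27+CD11b- is called the outer comparison, and the other 2 are the steps within it. The 3 comparisons share arrays, so they do not support each other. The sort field of CD27-CD11b+ replicate 1 names the CD27+ CD11b- gate while its title names CD11b+ CD27-; it was grouped by title, and its Cd27 and Itgam values (6.96 and 9.93) lay nearest to those of CD27-CD11b+ replicate 2 (6.47 and 9.44). The 10 NK cell markers were all above background. Their array means were 11.79 and 11.69 in CD27+CD11b-, 12.13 and 12.06 in CD27+CD11b+, and 12.39 and 12.28 in CD27-CD11b+. These means rose in the order of maturation without overlap. In the outer comparison 2 of the 10 rose (2.24% of all genes, limma), and the arrays of 7 were apart and higher (26.9%). A further division crossed the subsets. It was read from unnamed probe sets picked for a gap above 5 between the 2 arrays of every subset. The wide gap within each subset thus follows from that choice, and calls with the division as a block are a description. The 3 probe sets picked averaged 12.57 to 12.81 on replicate 2 of CD27+CD11b-, replicate 2 of CD27+CD11b+ and replicate 1 of CD27-CD11b+. These are here the on arrays. The average was 4.33 to 4.47 on the other 3, the off arrays.

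Sialic acids are the outermost sugars of many cell surface glycoproteins and glycolipids. ST3Gal enzymes link sialic acid to the third carbon of galactose, ST6Gal enzymes to the sixth carbon of galactose, ST6GalNAc enzymes to the sixth carbon of N-acetylgalactosamine, and ST8Sia enzymes to another sialic acid. The linkage decides which lectins can bind, among them the siglecs, several of which are inhibitory receptors of leukocytes, and the selectins, which start the rolling of leukocytes on vessel walls. The nucleotide donor CMP-sialic acid is made in the nucleus and carried into the Golgi by a dedicated transporter.

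Promoter windows from RefSeq (GRCm38.p6, 250 bases before to 50 after an annotated start) were found for 8 of the 10 genes, in 11 windows; St3gal1 and St3gal2 were not matched. They are shown for the 3 genes whose subset means spanned the widest ranges among those above background, and for St8sia4, which had the most RUNX motif matches. Capitals mark matches on either strand to TGTGGT (RUNX), AGGTGT (T-box), CACCTG (ZEB), CTTTGA (TCF/LEF), CCGGAAG (ETS) or GGGCGG (SP/KLF). The T-box and ZEB letters can overlap, since the reverse complement of CACCTG is CAGGTG.
St6galnac3, chr3:153725084-153725383, minus strand: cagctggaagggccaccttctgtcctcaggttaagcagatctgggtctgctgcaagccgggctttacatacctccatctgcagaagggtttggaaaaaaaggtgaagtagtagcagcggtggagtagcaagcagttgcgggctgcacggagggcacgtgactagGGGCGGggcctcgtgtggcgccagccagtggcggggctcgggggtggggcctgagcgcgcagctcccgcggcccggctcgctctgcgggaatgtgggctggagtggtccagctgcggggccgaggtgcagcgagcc
St6gal1, first of 3 windows, chr16:23224490-23224789, plus strand: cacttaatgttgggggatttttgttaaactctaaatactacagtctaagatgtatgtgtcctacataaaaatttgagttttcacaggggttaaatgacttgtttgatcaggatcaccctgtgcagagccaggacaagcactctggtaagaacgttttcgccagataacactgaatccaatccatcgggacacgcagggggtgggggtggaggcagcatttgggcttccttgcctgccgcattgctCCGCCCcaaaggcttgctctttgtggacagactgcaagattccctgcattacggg
St3gal4, chr9:35116815-35117114, minus strand: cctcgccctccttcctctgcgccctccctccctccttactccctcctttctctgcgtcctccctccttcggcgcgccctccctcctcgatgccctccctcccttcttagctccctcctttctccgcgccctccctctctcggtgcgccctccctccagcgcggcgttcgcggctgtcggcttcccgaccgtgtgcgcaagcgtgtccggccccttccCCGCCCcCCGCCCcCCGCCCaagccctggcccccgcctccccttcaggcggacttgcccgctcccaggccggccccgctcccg
St8sia4, chr1:95667545-95667844, minus strand: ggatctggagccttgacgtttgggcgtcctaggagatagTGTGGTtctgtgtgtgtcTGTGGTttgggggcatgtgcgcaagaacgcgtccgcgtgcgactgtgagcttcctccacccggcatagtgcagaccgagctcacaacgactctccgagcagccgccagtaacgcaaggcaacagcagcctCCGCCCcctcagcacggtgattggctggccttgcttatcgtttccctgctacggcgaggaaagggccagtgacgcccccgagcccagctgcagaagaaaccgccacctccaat
The St6galnac3 window and the first St6gal1 window each held 1 SP/KLF match, and the St3gal4 window held 3. The St8sia4 window held 2 RUNX matches and 1 SP/KLF match. The other 2 St6gal1 windows, at chr16:23225771-23226070 and chr16:23290220-23290519, held no match to any of the 6 motifs. Among all 32851 windows of this length, 35.7% held the SP/KLF letters, 16.8% RUNX, 13.7% T-box, 20.2% ZEB, 16.0% TCF/LEF and 8.86% ETS. The GC content was 66.0%, 48.0%, 74.0% and 61.3% in the 4 windows in the order shown, against a median of 52.67% over all windows. A match to these letters is a description and not a binding site.

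Transcripts of 2 enzymes that add sialic acid to sixth carbons, St6galnac3 and St6gal1, were highest in CD27+CD11b- cells and lay below background on average in both CD11b+ subsets. St6galnac3 encodes an enzyme that adds a further sialic acid to the N-acetylgalactosamine of already sialylated glycans, including gangliosides. Its brightest probe set, 1440121_at, read 8.10 and 8.55 in CD27+CD11b-, 5.91 and 6.03 in CD27+CD11b+, and 3.73 and 6.08 in CD27-CD11b+ (means 8.32 ± 0.32, 5.97 ± 0.08 and 4.90 ± 1.67). Both CD27+CD11b- arrays were above every other array, and the 2 CD27-CD11b+ arrays lay on either side of the CD27+CD11b+ pair. The difference was -2.35 (SE 0.62) for CD27+CD11b+ minus CD27+CD11b- and -3.42 (SE 0.62) for CD27-CD11b+ minus CD27+CD11b-. Measured to the background level, both correspond to at least 4.18-fold lower than in CD27+CD11b-. The first of these did not pass with all arrays and passed when either CD27-CD11b+ array was left out. Without CD27-CD11b+ replicate 1 the outer difference was -2.24, and without replicate 2 it was -4.60. Within the off arrays it was -2.01, and within the on arrays, which include replicate 1 of CD27-CD11b+, -4.82. The step from CD27+CD11b+ to CD27-CD11b+, -1.07 (SE 0.62), was within the spread, and it was 0.11 without CD27-CD11b+ replicate 1 and -2.24 without replicate 2.

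The other 2 probe sets of St6galnac3 were below background in all subsets, so the pattern rests on 1 probe set. Probe set 1420902_at averaged 4.14, 4.40 and 4.21 in the subsets in order of maturation, and 1420903_at averaged 4.26, 3.77 and 3.64. The outer difference was 0.07 on the first and -0.62 on the second. On the first, both CD27+CD11b+ arrays (4.54 and 4.26) were above both CD27+CD11b- arrays (4.20 and 4.08). On the second, the 2 CD27-CD11b+ arrays (3.85 and 3.44) were below both CD27+CD11b- arrays (4.23 and 4.30). Such values below background have no order of expression. Averaging the 3 probe sets gave an outer difference of -1.32.

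St6gal1 encodes the enzyme that caps N-glycans of the N-acetyllactosamine type on the sixth carbon of galactose, a structure that CD22 binds. Probe set 1420928_at read 7.29 and 8.20 in CD27+CD11b-, 5.28 and 6.50 in CD27+CD11b+, and 5.90 and 5.49 in CD27-CD11b+ (means 7.75 ± 0.64, 5.89 ± 0.86 and 5.70 ± 0.29). The CD27+CD11b- arrays were again above all others, and the CD11b+ subsets overlapped. The differences were -1.86 (SE 0.42) for CD27+CD11b+ minus CD27+CD11b- and -2.05 (SE 0.42) for CD27-CD11b+ minus CD27+CD11b-, at least 2.59-fold and 2.81-fold lower than in CD27+CD11b- when measured to the background level. CD27-CD11b+ minus CD27+CD11b+ was -0.19 (SE 0.42). The second probe set, 1420927_at, was below background throughout, with means of 5.50, 5.26 and 5.18 in the 3 subsets and an outer difference of -0.31. Averaging both gave -1.18.

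St6gal1 was higher on the on array than on the off array in all 3 subsets, by 0.91 in CD27+CD11b- cells, 1.21 in CD27+CD11b+ cells and 0.41 in CD27-CD11b+ cells. Within the off arrays CD27-CD11b+ minus CD27+CD11b- was -1.80, and within the on arrays it was -2.30. Monocyte and macrophage markers (16 of 19 above background) moved with the same division. Their mean was 7.56, 7.88 and 7.76 on the on arrays, in order of maturation, and 6.17, 6.99 and 6.82 on the off arrays. Neutrophil markers (6 of 8 above background) did so too, with means between 7.45 and 7.56 on the on arrays and between 6.20 and 6.71 on the off arrays. The part of either list in the level of St6gal1 was not tested. Array means of 9 dendritic cell markers (5 above background) also followed the division. They were 6.62, 6.63 and 6.87 on the on arrays, in order of maturation, and 6.18, 6.36 and 6.30 on the off arrays. The part of the dendritic cell list was not tested. The mean of 9 T cell markers (3 above background) was 5.85 and 5.59 in CD27+CD11b-, 5.66 and 5.24 in CD27+CD11b+, and 5.09 and 5.11 in CD27-CD11b+, so it was lower in CD27-CD11b+ than in CD27+CD11b-, as were St6gal1 and St6galnac3. In the outer comparison 1 of the 9, Cd3d, fell (1.15% of all genes, limma), and the arrays of 5 were apart and lower (24.3%). The part of the T cell list was not tested. St6gal1 is also a well-known gene of B cells. Of 9 B cell markers, 7 were below background on all subset means, among them Cd79a, Ms4a1, Pax5 and Ebf1. The 2 above it were Cd22, described below, and Bank1, with means of 6.67, 6.68 and 6.74. The mean of the 9 was 5.43 and 5.33 in CD27+CD11b-, 4.99 and 5.07 in CD27+CD11b+, and 5.01 and 4.93 in CD27-CD11b+. It was highest in CD27+CD11b-, as were St6gal1 and St6galnac3. This mean includes Cd22, the 1 of the 9 that fell in the outer comparison (1.15% of all genes, limma). The median outer difference of the 9 was -0.20. Arrays of 5 of the 9 were apart and lower in CD27+CD11b+ minus CD27+CD11b- (15.6% of all genes), and of 4 in the outer comparison (24.3%). The part of the B cell list was not tested. Markers of other innate lymphoid cells moved with both enzymes: all 7 measured were above background, 5 fell in CD27+CD11b+ against CD27+CD11b- (0.0879% of all genes, limma) and 6 in CD27-CD11b+ against CD27+CD11b- (1.15%), and their mean was 8.42 to 8.67 on the CD27+CD11b- arrays, 6.85 to 6.95 on the CD27+CD11b+ arrays and 6.51 to 6.63 on the CD27-CD11b+ arrays. Their part was not tested either.

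The remaining ST6GalNAc enzymes, St6galnac4 and St6galnac6, overlapped between all subsets. St6galnac4, which acts on sialylated core O-glycans, read 6.51 and 7.19 in CD27+CD11b-, 6.61 and 7.28 in CD27+CD11b+, and 7.19 and 6.70 in CD27-CD11b+, an outer difference of 0.09 (SE 0.30). Its on array exceeded its off array by 0.67, 0.67 and 0.48 in order of maturation, more than any of its differences between subsets. Its second probe set, 1418074_at, averaged 6.46, 6.46 and 6.78, with both CD27-CD11b+ arrays above both CD27+CD11b- arrays. St6galnac6, which sialylates gangliosides, read 7.06 and 6.67, 7.16 and 6.78, and 6.72 and 6.86 in the 3 subsets in order of maturation, with an outer difference of -0.07 (SE 0.20). Neither gene thus shared the drop of St6galnac3 on these arrays.

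**Figure D1:**
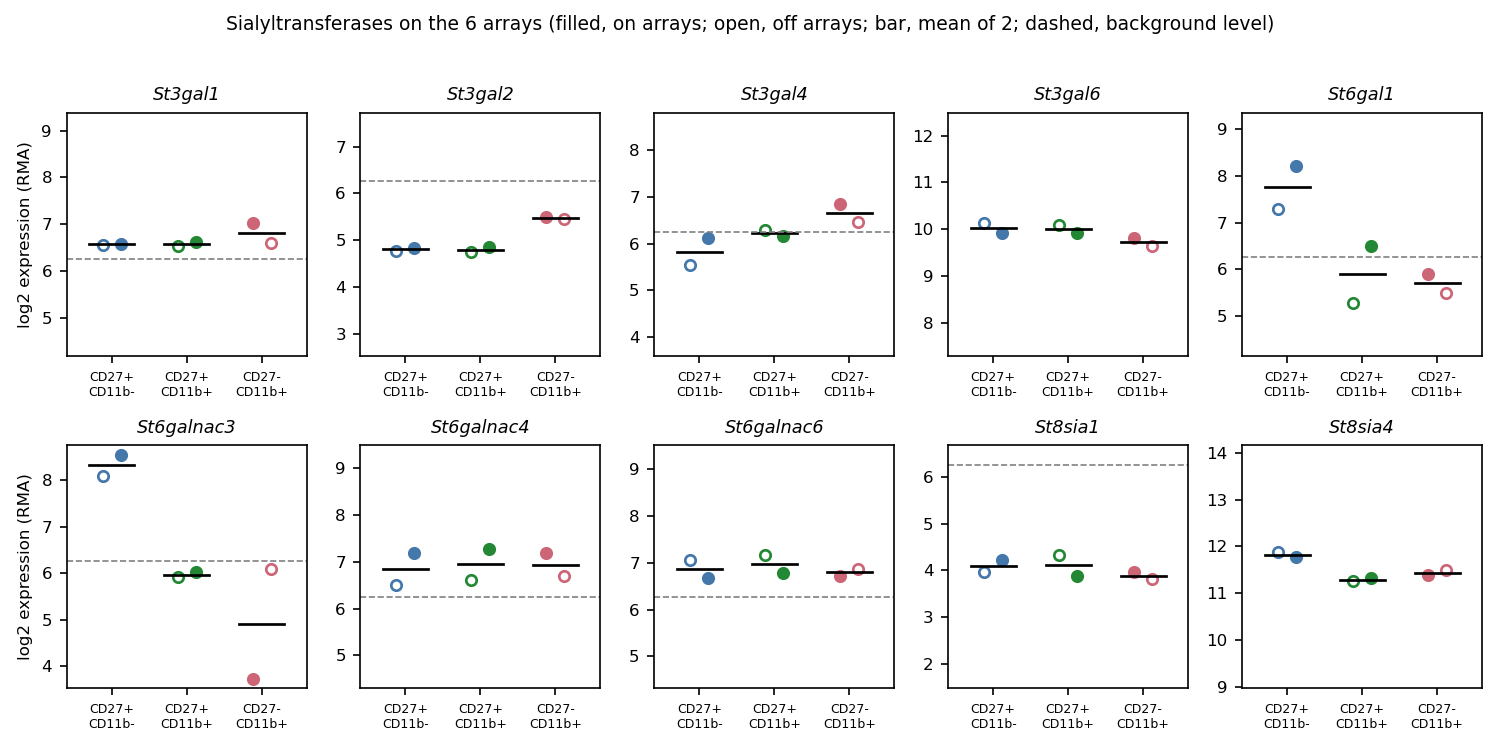
Log2 expression (y axis) of the brightest probe set of each of the 10 genes on 2 arrays in each of the 3 subsets (x axis); points are arrays, filled for on and open for off arrays, bars are means of 2 arrays and the dashed line, where in range, is the background level of 6.26. St6galnac3 and St6gal1 stand above the line on both CD27+CD11b- arrays, and St3gal2 and St8sia1 stay below it on all 6.

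Among the ST3Gal enzymes above background, St3gal4 and St3gal1 had their highest means in CD27-CD11b+ cells and St3gal6 its lowest, while St3gal2 was below background. St3gal4, an enzyme of N-acetyllactosamine chains that contributes to selectin ligands in mice, read 5.53 and 6.13 in CD27+CD11b-, 6.30 and 6.16 in CD27+CD11b+, and 6.86 and 6.47 in CD27-CD11b+ (means 5.83 ± 0.42, 6.23 ± 0.10 and 6.66 ± 0.28). The arrays of the 3 subsets did not overlap and followed the order of maturation, with steps of 0.40 and 0.43 (SE 0.23 each), neither of which passed. The first step was 0.10 without CD27+CD11b- replicate 1 and 0.69 without replicate 2, and the second was 0.24 without CD27-CD11b+ replicate 1 and 0.63 without replicate 2. The outer difference of 0.83 (SE 0.23) did not pass either, and it passed with the on and off division as a block. Since the CD27+CD11b- and CD27+CD11b+ means were below background, only the CD27-CD11b+ mean was measured above it, at least 1.32-fold higher than in CD27+CD11b-. Without CD27+CD11b- replicate 1 the outer difference was 0.53, and without replicate 2 it was 1.13. St3gal4 had a single probe set.

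St3gal2, which sialylates core O-glycans and gangliosides, was below background everywhere, where values have no order of expression, and its readings are given as such. Probe set 1421891_at read 4.77 and 4.83 in CD27+CD11b-, 4.74 and 4.85 in CD27+CD11b+, and 5.50 and 5.46 in CD27-CD11b+, and 1421892_at read 4.96 and 4.82, 4.73 and 4.78, and 5.20 and 5.44. On both, the CD27-CD11b+ arrays were above the other 4. The third, 1421890_at, averaged 5.09, 4.66 and 4.95 and did not show this. The difference on the brightest probe set was 0.68 (SE 0.14) both for CD27-CD11b+ minus CD27+CD11b+ and for CD27-CD11b+ minus CD27+CD11b-, and no fold change is given for values below background.

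St3gal6 and St3gal1 differed less. St3gal6, an enzyme of the same acceptor class as St3gal4, read 10.13 and 9.92 in CD27+CD11b-, 10.08 and 9.93 in CD27+CD11b+, and 9.80 and 9.64 in CD27-CD11b+, and the CD27-CD11b+ arrays were below all others. The outer difference was -0.30 (SE 0.16). All 5 of its probe sets had a negative outer difference, between -0.38 and -0.21, and 4 of them were above background. Within the off arrays the difference was -0.48 and within the on arrays -0.12. St3gal1, which caps core O-glycans and thereby limits their branching, read 6.56 and 6.56, 6.54 and 6.61, and 7.01 and 6.60 in the 3 subsets in the same order. Its outer difference of 0.24 (SE 0.17) rested on CD27-CD11b+ replicate 1 and was 0.04 without that array. On its second probe set, 1441216_at, the outer difference was -0.11, so the 2 probe sets of St3gal1 ran in opposite directions.

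The polysialyltransferase St8sia4 was above background in all subsets, and the ganglioside enzyme St8sia1 in none. St8sia4 builds chains of sialic acid on a few carrier proteins. It read 11.88 and 11.77 in CD27+CD11b-, 11.25 and 11.33 in CD27+CD11b+, and 11.39 and 11.49 in CD27-CD11b+ (means 11.82 ± 0.07, 11.29 ± 0.06 and 11.44 ± 0.07). The CD27+CD11b- arrays were highest and the 3 subsets did not overlap, although the step between the CD11b+ subsets, 0.15 (SE 0.14), was about as large as its error and was -0.01 with both probe sets averaged. CD27+CD11b+ minus CD27+CD11b- was -0.53 (SE 0.14) and the outer difference -0.39 (SE 0.14), and neither passed. The second probe set, 1430391_a_at, averaged 8.75 ± 0.32, 8.53 ± 0.30 and 8.37 ± 0.30 with overlapping arrays and an outer difference of -0.37. The 3 probe sets of St8sia1, whose product makes the ganglioside GD3, averaged between 3.72 and 4.14 in all subsets.

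**Figure D2:**
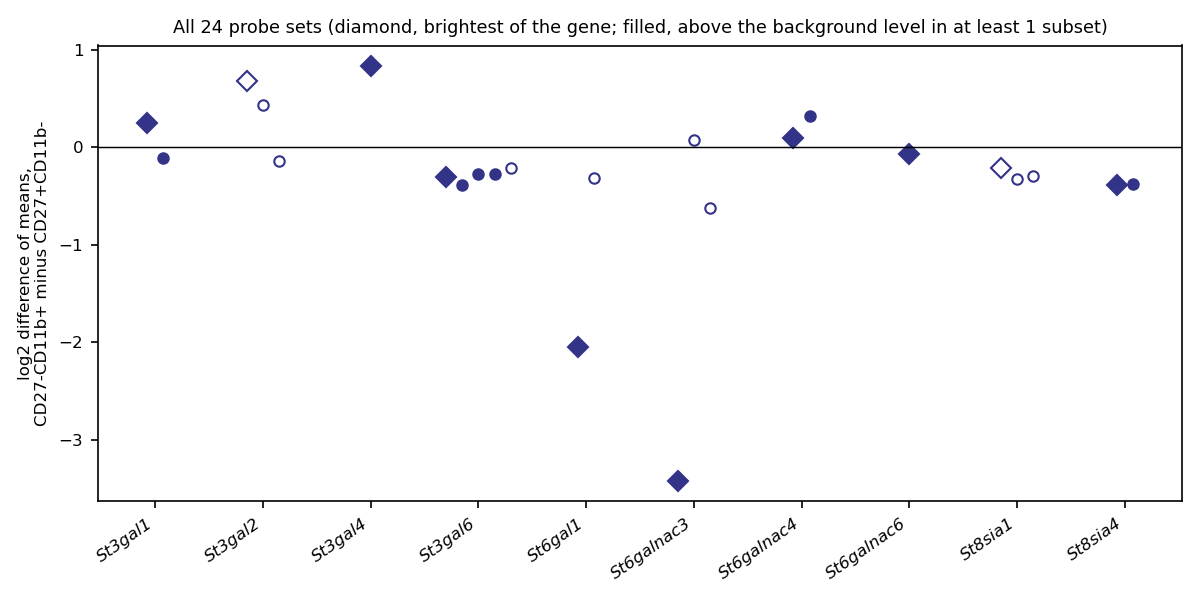
Difference of log2 means, CD27-CD11b+ minus CD27+CD11b- (y axis), for all 24 probe sets of the 10 genes (x axis); diamonds are the brightest probe set of a gene, circles the others, and filled symbols are above background in at least 1 subset. The values of -3.42 for St6galnac3 and -2.05 for St6gal1 belong to 1 probe set each, while all 5 of St3gal6 and both of St8sia4 lie between -0.39 and -0.21.

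Counted over the 10 genes, 3 passed in the outer comparison by limma, beside 3.39% of all genes. Of them St3gal2, below background in all subsets, read higher in CD27-CD11b+, beside 2.24% of all genes. The other 2, St6galnac3 and St6gal1, were lower, beside 1.15%. In CD27+CD11b+ minus CD27+CD11b- 0 of 10 passed in limma (0.121% of all genes, 0.033% higher and 0.0879% lower) and 3 reached an unadjusted p under 0.05 (3.79%). In CD27-CD11b+ minus CD27+CD11b+ 0 of 10 passed in limma (0.297% of all genes, 0.17% higher and 0.126% lower) and 1 reached an unadjusted p under 0.05 (11.1%). In the outer comparison 5 did (18.9%). Arrays of both subsets were apart for 8 of the 10 genes in the outer comparison (51.3% of all genes), 3 higher (26.9%) and 5 lower (24.3%). They were apart for 4 in CD27+CD11b+ minus CD27+CD11b- (30.3%), 1 higher (14.7%) and 3 lower (15.6%), and for 4 in CD27-CD11b+ minus CD27+CD11b+ (39.9%), 3 higher (22.8%) and 1 lower (17.1%). The median difference of the 10 was -0.14 in the outer comparison, beside -0.0055 over all genes. As the genes were chosen with these contrasts known, nothing is read from these counts. The outer calls depended on single arrays: St6galnac3 did not pass without CD27+CD11b- replicate 1 (-3.64) or replicate 2 (-3.19), St6gal1 did not pass without CD27+CD11b- replicate 2 (-1.60), CD27-CD11b+ replicate 1 (-2.25) or CD27-CD11b+ replicate 2 (-1.84), and St3gal2 did not pass when any 1 of the 6 arrays was left out (0.64 to 0.71). With the array division entered as a block, 1 of the 10, St6gal1, passed in CD27+CD11b+ minus CD27+CD11b- (0.319% of all genes), 0 in CD27-CD11b+ minus CD27+CD11b+ (1.63%) and 4 in the outer comparison (8.13%), St3gal4 being the addition. In that fit 0 of the 10 genes passed for the division itself (1.33% of all genes).

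The 10 other sialyltransferases of the mouse gave no call in any comparison, and 8 of them were below background in all subsets. Of all genes, 3.39% passed in the outer comparison and 0.121% and 0.297% in the first and second step, by limma. The 2 above background were St3gal3 and St3gal5. St3gal3, an enzyme of N-glycans and glycolipids, read 6.74 and 6.64 in CD27+CD11b-, 6.32 and 6.30 in CD27+CD11b+, and 6.44 and 5.99 in CD27-CD11b+, with both CD11b+ subsets below CD27+CD11b- and an outer difference of -0.48 (SE 0.18, limma adjusted p = 0.202). St3gal5, which makes GM3, the first ganglioside of most cells, averaged 6.62 ± 0.01, 6.48 ± 0.35 and 6.37 ± 0.10, with an outer difference of -0.25 (SE 0.19, limma adjusted p = 0.525). By limma, 1 of the 10, St3gal3, reached an unadjusted p under 0.05 in the outer comparison (18.9% of all genes). In the first and second step 0 did (3.79% and 11.1%).

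Genes that supply, remove or recognise sialic acid were read from lists of 55 measured genes outside the family. In the outer comparison 2 of them rose and 2 fell (3.39% of all genes passed), in CD27+CD11b+ minus CD27+CD11b- 1 fell (0.121%), and in CD27-CD11b+ minus CD27+CD11b+ 0 passed (0.297%), all by limma. An unadjusted p under 0.05 was reached by 16 of the 55 in the outer comparison (18.9% of all genes), 7 in CD27+CD11b+ minus CD27+CD11b- (3.79%) and 9 in CD27-CD11b+ minus CD27+CD11b+ (11.1%). Of the 8 genes of donor synthesis and transport, 7 were above background and 0 passed in any comparison. By limma 2 reached an unadjusted p under 0.05 in the outer one (18.9% of all genes), 0 in CD27+CD11b+ minus CD27+CD11b- (3.79%) and 3 in CD27-CD11b+ minus CD27+CD11b+ (11.1%). Cmas, which activates sialic acid with CMP, averaged 10.38 ± 0.15 in CD27-CD11b+ and 9.82 ± 0.13 in CD27+CD11b- (difference 0.55, SE 0.16, limma adjusted p = 0.104). Nanp, the phosphatase before that step, differed by 0.37 (SE 0.25, limma adjusted p = 0.495). Of 6 genes of sialic acid removal and modification, 0 passed by limma in any comparison, and 2, 1 and 0 reached an unadjusted p under 0.05 in the outer comparison, the first step and the second step. Ctsa, the protective protein that stabilises the lysosomal sialidase, averaged 10.55 ± 0.29 in CD27-CD11b+ and 9.74 ± 0.04 in CD27+CD11b- (0.81, SE 0.20, limma adjusted p = 0.0710, and 0.0423 with the division as a block). The sialic acid esterase Siae differed by 0.46 (SE 0.20, limma adjusted p = 0.274).

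Cd22, the siglec that binds the product of St6gal1 and is best known as an inhibitory receptor of B cells, was the 1 siglec of 8 that passed. Of all genes, 1.15% passed as lower in the outer comparison and 0.0879% in CD27+CD11b+ minus CD27+CD11b-, by limma. Cd22 read 8.11 and 8.03 in CD27+CD11b-, 6.71 and 6.38 in CD27+CD11b+, and 5.85 and 5.86 in CD27-CD11b+. The arrays of the 3 subsets did not overlap. It fell by 2.21 in CD27-CD11b+ against CD27+CD11b- (SE 0.16, limma adjusted p = 7.27e-04), to below background, at least 3.51-fold lower, and by 1.53 in CD27+CD11b+ against CD27+CD11b- (SE 0.16, limma adjusted p = 0.0217). With each array left out in turn, the outer call held (limma adjusted p = 0.00113 to 0.0177), and the call in CD27+CD11b+ minus CD27+CD11b- was lost each time (0.0723 to 0.105). That call was also lost when all probe sets were tested (0.118), with averaged probe sets (0.154) and with 32 added (0.101), and its adjusted p over all alternatives ran between 0.00667 and 0.154. Mag, the only other siglec above background, differed by 0.14 (SE 0.22, limma adjusted p = 0.790) in the outer comparison.

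Enzymes that build the chains to be sialylated included 1 that fell and 1 that rose among 23. Both calls were in the outer comparison (1.15% of all genes lower and 2.24% higher, limma). Gcnt1, the enzyme that branches core O-glycans and competes with St3gal1 for its acceptor, read 8.62 and 8.66 in CD27+CD11b-, 7.35 and 8.35 in CD27+CD11b+, and 7.10 and 7.18 in CD27-CD11b+. It fell by 1.50 in CD27-CD11b+ against CD27+CD11b- (SE 0.29, limma adjusted p = 0.0345), 2.83-fold. The call was lost when any 1 of the CD27+CD11b- or CD27-CD11b+ arrays was left out (differences -1.54 to -1.46), when all probe sets were tested (limma adjusted p = 0.106) and with 32 added to the linear values (0.101). Over all alternatives the adjusted p ran between 0.00518 and 0.220. B3gnt5, which starts lacto-series glycolipids, read 9.34 and 9.09, 9.77 and 9.66, and 10.22 and 10.14 in the 3 subsets in order of maturation, and rose by 0.97 (SE 0.16, limma adjusted p = 0.0197). Its call was lost without CD27+CD11b- replicate 2 (0.84), CD27-CD11b+ replicate 1 (0.93) or CD27-CD11b+ replicate 2 (1.005), and when all probe sets were tested (limma adjusted p = 0.0607). Over all alternatives the adjusted p ran between 0.00834 and 0.152. Gcnt2, which branches lactosamine chains, differed by -1.23 (SE 0.30, limma adjusted p = 0.0719, and 0.0420 with the division as a block).

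Of the 10 measured selectin ligand and carrier genes, Spn rose in the outer comparison (2.24% of all genes, limma) and 9 did not pass. Spn encodes CD43, a heavily sialylated mucin of leukocytes. It read 10.88 and 10.66 in CD27+CD11b-, 11.29 and 11.02 in CD27+CD11b+, and 12.03 and 11.91 in CD27-CD11b+, a rise of 1.20 in CD27-CD11b+ against CD27+CD11b- (SE 0.17, limma adjusted p = 0.0112), 2.30-fold. The call was lost without CD27+CD11b- replicate 2 (1.09), CD27-CD11b+ replicate 1 (1.14) or CD27-CD11b+ replicate 2 (1.26). Selplg, the P-selectin ligand PSGL-1, averaged 12.89 ± 0.14 in CD27-CD11b+ and 12.40 ± 0.28 in CD27+CD11b- (0.49, SE 0.18, limma adjusted p = 0.188). Ncam1 and Nrp2, known carriers of polysialic acid, were below background in all subsets, as was Ccr7.

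**Figure D3:**
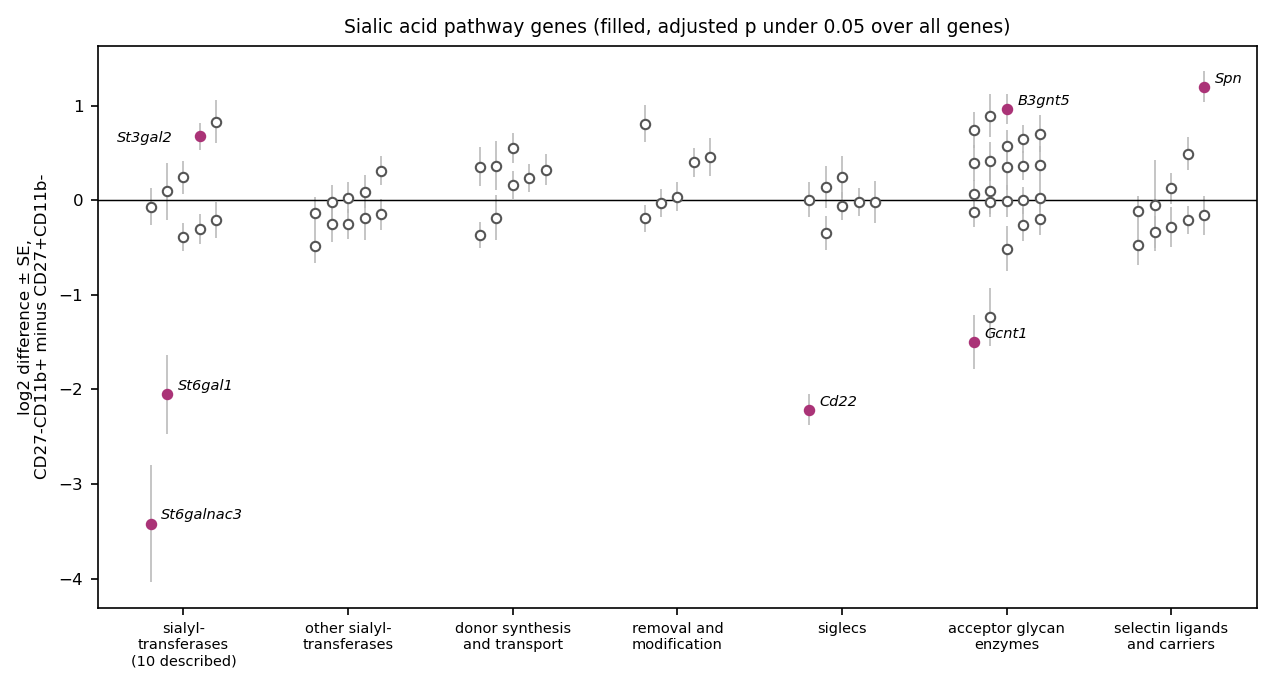
Log2 difference, CD27-CD11b+ minus CD27+CD11b-, with the SE of the limma fit (y axis), for the 10 sialyltransferases described and for the genes of 6 related lists (x axis); each point is a gene by its brightest probe set, and filled points passed the adjusted threshold over all genes. The other sialyltransferases lie between -0.48 and 0.31, while St6galnac3, St6gal1, Cd22, Gcnt1 and Gcnt2 lie below -1.

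**Figure D4:**
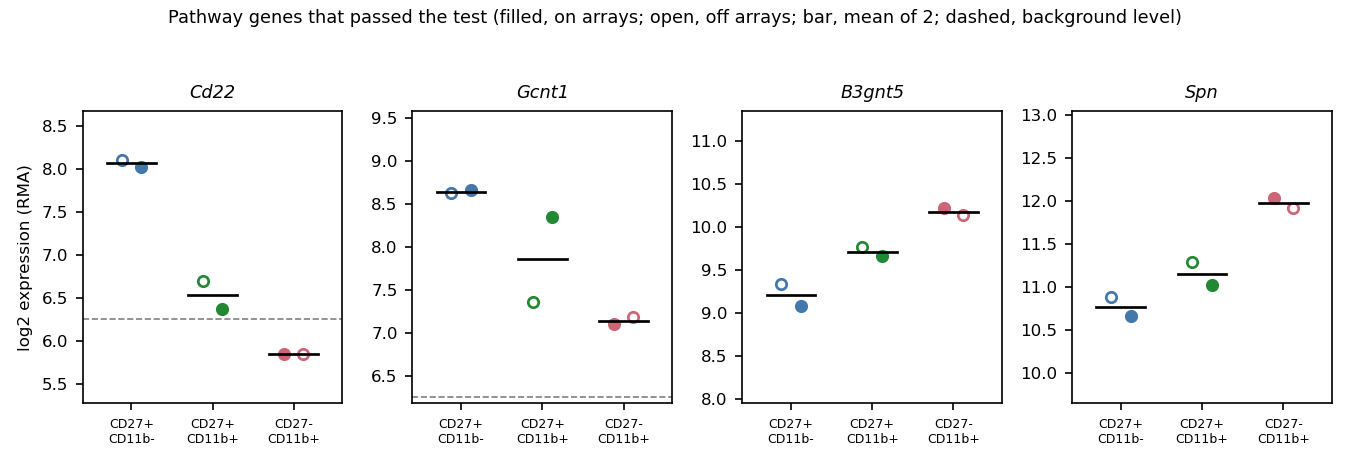
Log2 expression (y axis) of Cd22, Gcnt1, B3gnt5 and Spn on the 2 arrays of each subset (x axis); filled points are on arrays, open points off arrays, bars means of 2 arrays, and the dashed line, where in range, is the background level of 6.26. Cd22 and Gcnt1 are lowest and B3gnt5 and Spn highest on the CD27-CD11b+ arrays.

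Genes with the most similar profiles were sought for St6galnac3 and St6gal1, the 2 genes of the set above background with the widest range of subset means, by the root mean square difference of the 6 array values after centring each gene on its mean, among 8986 other genes above background. Nearest to St6gal1 were Sema6d (0.14), Adam8 (0.25), Il2ra (0.26), Trib2 (0.30) and Itgb3 (0.32), in log2 units. Sema6d, a semaphorin, read 7.52 and 8.65 in CD27+CD11b-, 5.86 and 6.71 in CD27+CD11b+, and 6.13 and 5.70 in CD27-CD11b+, so that its on array was above its off array in all 3 subsets, as for St6gal1. Il2ra is also among the markers of other innate lymphoid cells given above. Nearest to St6galnac3 were Gm36723 (0.52), Acpp (0.68), Inpp4b (0.68), Ttn (0.73) and Ikzf2 (0.78). Of these, Gm36723 read 6.97 on CD27-CD11b+ replicate 1 and 8.04 on replicate 2, and the gap between that pair was smaller for the other 4. These similarities cover 6 arrays that share the subset differences, and they are a description.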

How the data were processed

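The deposited table holds log2 values per probe set for 6 arrays. The submitters' processing notes name RMA, with no version, and the log2 scale was read from the values (2.60 to 14.72). Array medians were 5.26 to 5.36. Of 45101 probe sets, 64 controls were left out; 34945 of the rest had 1 gene symbol in the platform annotation, and probe sets with several symbols (932) or none (9160) were not named. Each of 18193 genes was represented by its probe set with the highest mean.

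Groups came from the sample titles. limma 3.58.1 (R 4.3.3) was fitted over all 6 arrays with 1 mean per subset (3 residual and 4.93 prior degrees of freedom) and tested on simulated data. Alternatives were a block for replicate number or for the array division, other probe set choices, a filter at background, 32 added to the linear values, an intensity trend and each array left out. The 10 genes, the lists, the background genes (41 of 50 measured) and the tests were chosen with earlier results of these data known. Genes of the related lists were named where they passed, plus up to 2 per list with the largest outer difference above background. A further 5 were named by similarity for each of 2 genes. Marker genes that passed were counted, and not all of them were named. All others named (background and marker genes, and carriers at background) were chosen after their values were seen. No genome coordinates of probe sets were used.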

Additional observations from a re-analysis of the deposited data

How the results depend on the processing

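Of 384 recomputed differences of the 10 sialyltransferases, 210 kept their value, since blocks, filters, the trend, testing all probe sets, averaging a single probe set and leaving out an array of the subset not compared do not enter the difference. Of the 174 that changed, 140 moved by less than the replicate spread and 34 by more, and 26 changed sign, none of them a difference that had passed. Counts below follow the order CD27+CD11b+ minus CD27+CD11b-, CD27-CD11b+ minus CD27+CD11b+, and the outer comparison, where 22, 54 and 617 of all genes, 0, 0 and 3 of the 10, and 1, 0 and 4 of the 65 related genes passed. Correlations of deviations between same-numbered arrays were 0.62 for the CD27+ subsets. For CD27+CD11b- and CD27+CD11b+ with CD27-CD11b+ they were -0.25 and -0.14. These correlations cannot tell whether same-numbered arrays were paired, because the on and off sides run against the replicate numbers in CD27-CD11b+ only. Replicate 1 was an off array in both CD27+ subsets and an on array in CD27-CD11b+. The replicate block gave 19, 58 and 760 genes, 0, 0 and 3 of the 10, and 1, 0 and 6 related genes. The division block gave 58, 296 and 1480 genes, 1, 0 and 4 of the 10, and 1, 1 and 10 related genes. Testing all probe sets gave 0, 18 and 288 genes, 161 of the 288 higher, with 0 of the 10 and 0, 0 and 2 related genes. Averaging probe sets gave 11, 36 and 550 genes, 0, 0 and 2 of the 10 and 0, 0 and 4 related genes. Adding 32 to the linear values gave 0, 11 and 367 genes, 5 of the 11 and 255 of the 367 higher (main 31 of 54 and 408 of 617), with 0 of the 10 and 0, 0 and 3 related genes. St3gal2 did not pass in the outer comparison with averaged probe sets or with an intensity trend. The filter at background removed St3gal2 before the fit, so it was not tested in that setting. Leaving out 1 array at a time gave 4 to 30, 6 to 53 and 84 to 635 genes, 0 to 1, 0 to 1 and 0 to 2 of the 10, and 0, 0 and 1 to 4 related genes. The lone array left in a subset is then assumed to vary like the others. St6galnac3 passed in CD27+CD11b+ minus CD27+CD11b- without either CD27-CD11b+ array, and in CD27-CD11b+ minus CD27+CD11b+ without CD27-CD11b+ replicate 2. The first difference stayed at -2.35 in these fits, and the SD of 1.67 between the 2 CD27-CD11b+ arrays no longer entered the spread. In the second, the CD27+CD11b+ mean of 5.97 and the remaining CD27-CD11b+ array, 3.73, were both below background. The cause of the gap between the CD27-CD11b+ arrays was not tested. With 2 arrays per subset, small differences are not detectable, and values below 6.26 have no order of expression.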
